A study of Homo sapiens with 4 samples.

Results

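The genes described here are negative-feedback regulators of the RAS to ERK kinase pathway: the dual-specificity phosphatase genes DUSP1, DUSP4, DUSP5, DUSP6 and DUSP7, the Sprouty genes SPRY1, SPRY2 and SPRY4, and the Sprouty-related genes SPRED1 and SPRED2. They were chosen by symbol, and all 10 were found among the 18375 genes of the deposited table. RD is an established cell line from a fusion-negative rhabdomyosarcoma, a tumour of muscle-like cells, and is known to carry an activating NRAS mutation. Poly(A)-selected RNA was sequenced from 2 libraries of untreated parental RD cells and 2 libraries of vincristine-resistant RD cells, all labelled as wild type in genotype. Resistance was selected by raising the dose of vincristine, a microtubule poison used against these tumours. It began at 1 to 1.5 nM, which killed 80 to 90% of the cells, and was raised in steps of 10 to 20% over 9 to 12 months until the IC50 had gone up 100-fold or more. The labels do not say whether the resistant libraries came from 1 or several selections, whether they were cultured with the drug at harvest, or whether replicates were separate cultures. All p-values rest on the spread of libraries within a group, and that spread may be purely technical.

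ERK is activated by receptor tyrosine kinases through RAS, RAF and MEK, and active ERK induces transcription of its own inhibitors. Dual-specificity phosphatases remove phosphate from MAP kinases, in the nucleus (DUSP1, DUSP4, DUSP5) or in the cytoplasm (DUSP6, DUSP7). Sprouty proteins act between the receptors and RAF, and SPRED proteins bring the RAS inactivator neurofibromin to the membrane. In many tumour cells with an activated RAS pathway the transcripts of these genes are used as a readout of ERK output, although protein activity is not measured by RNA.

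The libraries held 58861281 to 67690557 reads over the genes of the table, and each member had 1654 to 40818 reads in a library, so counting error was small for all 10. Muscle lineage markers were present in every library, with MYOD1 at 16588 ± 491 normalized counts in parental and 15949 ± 1041 in resistant cells (SD, n = 2 throughout). Of 11 measured muscle lineage genes 10 rose and MYOD1 was not called (log2 fold change -0.06, SE 0.04). The summed level of the 11 went from 125377 to 125988 in parental to 235845 to 241712 in resistant libraries. PAX7 rose from 377 ± 3.28 to 4540 ± 119 normalized counts (log2 fold change 3.58, SE 0.05). ACTC1 rose from 15290 ± 134 to 42937.5 ± 424 (log2 fold change 1.49, SE 0.03). Of 8 epithelial genes 4 rose and 1 fell, and their sum went from 5182 to 5203 in parental to 15016 to 15170.0 in resistant libraries, most of it KRT18, with EPCAM at 58.8 and 68.6. Of 6 measured fibroblast genes 3 rose and 1 fell (sums of 716652 to 722540 and 522906 to 527863, most of it COL3A1). Of 3 measured blood genes 2 fell (sums of 114 to 115 and 76.8 to 79.2). Of 2 measured endothelial genes TEK rose (3.10, SE 0.08, log2 scale) and CLDN5 fell (-1.24, SE 0.09), with sums of 778 to 857 and 1960 to 1981. Of 4 measured neural genes 1 rose and 1 fell (sums of 663 to 667 and 855 to 875). MYOD1 and EPCAM were named after their values were seen. The part of these lineage differences in the results below was not tested, and in bulk RNA fewer cells of a kind and less RNA per cell cannot be told apart.

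Of the 10 feedback genes, 3 rose in resistant cells (DUSP6, SPRED1 and DUSP1), 6 fell (DUSP4, SPRY2, DUSP5, SPRY1, SPRED2 and SPRY4), and DUSP7 did not pass the test. The test was limma on log2 normalized counts with adjustment over all 18330 tested genes, at an adjusted p below 0.05. By the same test 32.7% of all genes were called higher and 34.2% lower, 66.9% together, so most genes of the table pass and the count of members called is read against that share. The median log2 fold change of resistant over parental cells was -0.15 over the 10 members and 0.00427 over all tested genes. Both resistant libraries lay outside the range of both parental libraries for 9 of the 10 members, and for 82.1% of all tested genes. When a change above 1.2-fold was required, 6 members still passed, 2 higher (DUSP6 and SPRED1) and 4 lower (DUSP4, SPRY2, DUSP5 and SPRY1), against 37.1% of all genes (18.4% higher and 18.6% lower). The fall of DUSP4 was the single change of at least 2-fold among the 10, and 6.57% of all genes were called lower by at least that much and 8.96% higher. The authors' deposited table calls 9 of the 10 members at an adjusted p below 0.05, and all 10 have the same sign there.

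**Figure D1:**
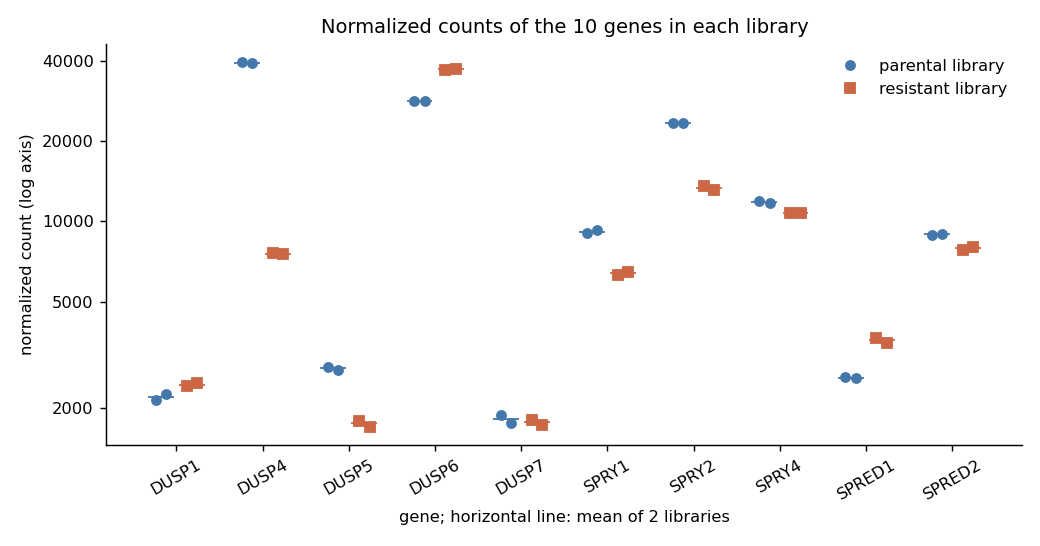
Normalized counts (log axis) of the 10 genes in the 2 parental libraries (circles) and the 2 resistant libraries (squares), with a horizontal line at each group mean. DUSP4 drops from a mean of 39253 to 7568, DUSP6 and SPRED1 lie higher in both resistant libraries, and the groups overlap for DUSP7 alone.

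Among the nuclear phosphatases DUSP4 fell steeply, DUSP5 fell and DUSP1 rose slightly. DUSP4, whose product dephosphorylates ERK and other MAP kinases in the nucleus, had 39463 and 39043 normalized counts in the parental libraries and 7606 and 7529 in the resistant ones. The groups were far apart beside the spread within them, and the level fell 5.19-fold (log2 fold change -2.37, SE 0.03, limma adjusted p = 6.05e-29). Of all genes called lower, 3.44% had a larger fall. DUSP4 (ENSG00000120875) lies on the minus strand of chromosome 8 from 29333064 to 29350668 in GRCh38, with up to 5 exons in a transcript.

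DUSP5 encodes a nuclear phosphatase that is specific for ERK and also anchors it there. It had 2833 and 2777 normalized counts in parental and 1789.8 and 1700.0 in resistant libraries. The groups did not overlap, and the level was 1.61-fold lower in resistant cells (log2 fold change -0.68, SE 0.05, limma adjusted p = 3.54e-13). DUSP5 (ENSG00000138166) lies on chromosome 10 from 110497838 to 110511544, on the plus strand.

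DUSP1 encodes an immediate early phosphatase that acts on p38 and JNK kinases as well as ERK. Its values were 2137 and 2247 in parental and 2412 and 2471 in resistant libraries. The groups did not overlap, but the gap between them was not much wider than the gap within the parental pair. The change was 1.11-fold (log2 fold change 0.16, SE 0.05, limma adjusted p = 0.00350). It no longer passed without parental replicate 1 (log2 fold change 0.12, limma adjusted p = 0.125), nor with an assumed dispersion of 0.01 between cultures (edgeR adjusted p = 0.409). DUSP1 (ENSG00000120129) lies on the minus strand of chromosome 5 from 172768090 to 172771195. Its promoter is shown because it was the only one of the 8 members with a RefSeq promoter entry whose windows held a cyclic AMP response element. The window is the 250 bases before the RefSeq start (GRCh38.p14, chr5:172771196-172771445, minus strand), and capitals mark matches to the motifs searched other than the GC box GGGCGG, which 42.6% of all windows hold:
DUSP1: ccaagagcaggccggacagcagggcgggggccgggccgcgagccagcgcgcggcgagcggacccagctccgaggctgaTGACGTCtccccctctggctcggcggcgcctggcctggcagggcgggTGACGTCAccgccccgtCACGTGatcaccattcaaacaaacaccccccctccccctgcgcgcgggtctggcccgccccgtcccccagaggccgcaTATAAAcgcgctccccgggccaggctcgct
The 8 letters TGACGTCA begin 125 bases before the start, a shortened match TGACGTC begins 172 bases before it, an E-box CACGTG 108 bases and the TATA letters TATAAA 30 bases before it. Searched on both strands, 1.65% of 35116 RefSeq promoter windows of this length held TGACGTCA, 3.12% held TGACGTC (which every TGACGTCA also contains), 6.34% held CACGTG and 10.7% held TATAAA. These are matches of letters, not measured binding.

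Of the cytoplasmic phosphatases, DUSP6 rose and DUSP7 did not pass the test. DUSP6, the phosphatase of cytoplasmic ERK whose transcript is a common readout of the pathway, rose from 28132 and 28269 normalized counts in parental to 36810.4 and 37329 in resistant libraries. Each pair was tight and the groups did not overlap, a 1.31-fold rise (log2 fold change 0.39, SE 0.03, limma adjusted p = 6.57e-13). DUSP6 (ENSG00000139318) lies on the minus strand of chromosome 12 from 89347232 to 89353271. An antisense gene, AC024909.2, covers 40.5% of its exonic bases from the opposite strand, and no strand setting of the counting is given. DUSP6 counts may thus include antisense reads or lack reads of the overlap, and the number of either was not measured. The level per kb and the share of DUSP6 below carry the same limit.

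DUSP7, a cytoplasmic ERK phosphatase related to DUSP6, had 1879 and 1749.7 normalized counts in parental and 1805 and 1720.0 in resistant libraries. The groups overlapped, and the log2 fold change of -0.04 (SE 0.05, limma adjusted p = 0.487) had a 95% interval from -0.15 to 0.06, which is 0.904 to 1.04 times the parental level. Its sign turned without parental replicate 1 (log2 fold change 0.01). DUSP7 (ENSG00000164086) lies on the minus strand of chromosome 3 from 52048919 to 52056550.

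The balance of the phosphatase transcripts shifted with these changes. Levels of different genes were compared as normalized counts per kb of the union of annotated exons. On that scale the 5 phosphatase genes summed to 13986 and 13968 in parental and 11194 and 11275 in resistant libraries, 0.804 times the parental sum. DUSP6 and DUSP4 held most of the parental sum, with shares of 43.6 ± 0.190% and 38.7 ± 0.258%. In resistant cells DUSP6 alone held 71.2 ± 0.340% and DUSP4 9.28 ± 0.114%. The ratio of DUSP6 to DUSP4 levels was 1.12 and 1.13 in the parental and 7.58 and 7.77 in the resistant libraries, 6.82 times the parental ratio, a factor that does not depend on the lengths used. The sums and shares do depend on them, as does the order of the pair in parental cells. With the longest transcript as the length, DUSP4 stood at 7089 and DUSP6 at 6409 per kb there. With 2 libraries against 2 an exact permutation test cannot go below p = 0.333, so these sums and ratios are given as values.

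**Figure D2:**
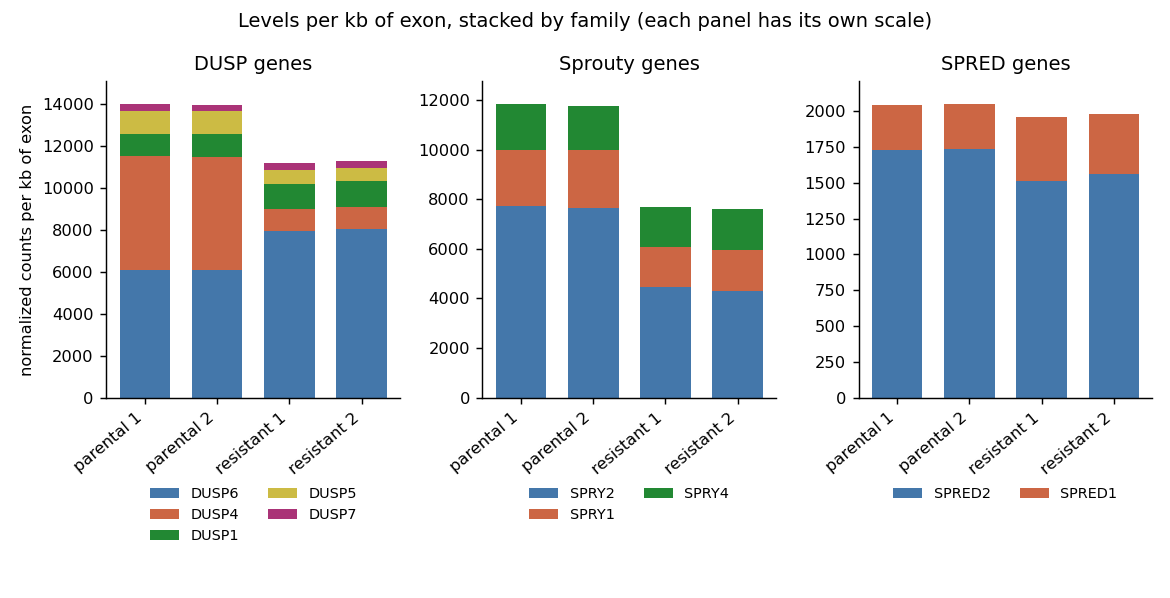
Stacked levels (normalized counts per kb of exon) of the phosphatase, Sprouty and SPRED genes in each of the 4 libraries, each panel with its own axis from 0. The DUSP4 segment shrinks and the DUSP6 segment grows in both resistant libraries, the Sprouty sum is lower by a similar amount in both, and the SPRED sum changes little.

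All 3 Sprouty genes fell, SPRY2 by the most and SPRY4 by the least. SPRY2, an inducible inhibitor of growth factor receptor signalling to RAS, had 23434 and 23264 normalized counts in parental and 13604 and 13119.8 in resistant libraries. The groups were separated by many times the spread within either pair, and the level was 1.75-fold lower in resistant cells (log2 fold change -0.81, SE 0.03, limma adjusted p = 8.74e-19). SPRY1, which acts likewise and is known for holding muscle stem cells in quiescence, had 9045 and 9241 against 6298 and 6476, a 1.43-fold fall (log2 fold change -0.52, SE 0.03, limma adjusted p = 1.66e-13). Its groups did not overlap either.

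SPRY4, another inducible inhibitor of the family, had 11937 and 11683 normalized counts in parental and 10736.5 and 10779 in resistant libraries. All 4 values lay within a narrow range, though the groups did not overlap (log2 fold change -0.13, SE 0.03, limma adjusted p = 0.000380). The call was lost without parental replicate 1 (log2 fold change -0.12, limma adjusted p = 0.0508) and with an assumed dispersion of 0.01 (edgeR adjusted p = 0.490). SPRY4-AS1, an antisense transcript of the locus named after its value was seen, was higher in resistant cells (57.3 ± 0.949 to 94.4 ± 11.9 normalized counts, log2 fold change 0.70, SE 0.19, limma adjusted p = 0.00224). It shares 0% of the exonic bases of SPRY4 in GENCODE 29.

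Per kb of exon the Sprouty genes summed to 11814 and 11769 in parental and 7702 and 7595 in resistant libraries, 0.649 times the parental sum. SPRY2 made up 65.2 ± 0.159% of it in parental and 57.5 ± 0.901% in resistant cells, SPRY4 15.3 ± 0.191% and 21.4 ± 0.274%, and SPRY1 19.6 ± 0.350% and 21.1 ± 0.627%. The genes lie apart in the genome. SPRY2 (ENSG00000136158) is on the minus strand of chromosome 13 from 80335976 to 80340951, SPRY1 (ENSG00000164056) on the plus strand of chromosome 4 from 123396795 to 123403760, and SPRY4 (ENSG00000187678) on the minus strand of chromosome 5 from 142310427 to 142326455.

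The promoters of SPRY1 and SPRY2, which fell more than SPRY4, are shown. Each is the 250 bases before the most upstream RefSeq start (GRCh38.p14; SPRY1 chr4:123396545-123396794, plus strand; SPRY2 chr13:80341127-80341376, minus strand), outside annotated exons, with capitals for matches other than the GC box:
SPRY1: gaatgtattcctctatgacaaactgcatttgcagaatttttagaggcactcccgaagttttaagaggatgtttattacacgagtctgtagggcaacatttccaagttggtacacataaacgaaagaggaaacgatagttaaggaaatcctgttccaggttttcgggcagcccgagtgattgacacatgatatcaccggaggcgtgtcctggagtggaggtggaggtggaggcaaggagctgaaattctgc
SPRY2: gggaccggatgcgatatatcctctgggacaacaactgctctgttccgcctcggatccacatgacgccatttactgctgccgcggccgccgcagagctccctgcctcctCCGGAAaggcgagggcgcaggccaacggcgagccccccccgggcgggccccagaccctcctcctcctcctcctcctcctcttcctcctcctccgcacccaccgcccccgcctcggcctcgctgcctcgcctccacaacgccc
The SPRY2 window held the letters CCGGAA, a strict form of the site bound by ETS factors. The match begins 142 bases before the start, and 14.5% of all windows hold these letters on either strand. Shorter forms of the ETS site were not searched. In this SPRY1 window none of the motifs named so far was found, nor the AP-1 letters TGANTCA (in 6.57% of all windows) or the serum response element (1.16%). A second RefSeq start of SPRY1 had 1 CCGGAA match in its window, which overlaps an annotated exon. The windows of SPRY4, DUSP1, DUSP6, DUSP7, SPRED1 and SPRED2 held no CCGGAA, nor did those at the other SPRY2 starts. The share of G and C depended on the start: 45.6% in this SPRY1 window and 68.0% at its second start, 70.4% in this SPRY2 window and 62.4% and 41.2% at its other starts. The median over all windows was 58.0%.

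The SPRED genes moved in opposite directions. SPRED1, whose product binds neurofibromin and whose loss activates RAS, had 2610.4 and 2578 normalized counts in parental and 3654 and 3489.7 in resistant libraries. The groups did not overlap, and the rise was 1.38-fold (log2 fold change 0.46, SE 0.04, limma adjusted p = 1.59e-10). SPRED2, its close relative, had 8911 and 8934 against 7796 and 8033, a 1.13-fold fall with no overlap (log2 fold change -0.17, SE 0.03, limma adjusted p = 3.73e-05), which did not pass with an assumed dispersion of 0.01 (edgeR adjusted p = 0.358). Per kb of exon SPRED2 stood 5.47 and 5.55 times above SPRED1 in parental and 3.42 and 3.69 times above it in resistant libraries, while their sum was 0.962 times the parental sum. SPRED1 (ENSG00000166068) lies on the plus strand of chromosome 15 from 38252326 to 38357249, and SPRED2 (ENSG00000198369) on the minus strand of chromosome 2 from 65310851 to 65432637. With spans of 105 and 122 kb they are the longest loci of the 10, the others spanning 3.11 to 17.6 kb.

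Ordered by level per kb of exon, parental cells had SPRY2 first (7686 ± 39.5), then DUSP6 (6088 ± 20.9), DUSP4 (5409 ± 41.0), SPRY1 (2307 ± 34.98), SPRY4 (1799 ± 27.4), SPRED2 (1731 ± 3.19), DUSP1 (1086 ± 38.6), DUSP5 (1073 ± 15.2), DUSP7 (321 ± 16.1) and SPRED1 (314 ± 2.79). The ranges of the 2 libraries overlapped for the neighbours DUSP1 and DUSP5 and for DUSP7 and SPRED1, and these pairs have no order on this scale. In resistant cells DUSP6 came first (8003 ± 79.2), followed by SPRY2 (4398 ± 113), SPRY4 (1639 ± 4.61), SPRY1 (1612 ± 31.9), SPRED2 (1536 ± 32.5), DUSP1 (1209 ± 20.8), DUSP4 (1043 ± 7.48), DUSP5 (667 ± 24.3), SPRED1 (432 ± 14.1) and DUSP7 (312 ± 10.6). No neighbours overlapped there, though the highest SPRY1 library (1634) lay just below the lowest SPRY4 library (1635), and these have no clear order. With the longest transcript as the length, the order of several pairs changed, while SPRY2 stayed first in parental and DUSP6 first in resistant cells. DUSP7 then stood above SPRED1 in both groups, at 543 and 333 per kb in parental and 528 and 459 in resistant cells.

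To compare each change with its surroundings, each member was set beside the 10 nearest tested genes on either side of it. DUSP4 and DUSP5 fell against their surroundings. The neighbours of DUSP4 had a median log2 fold change of 0.09, with 7 higher and 5 lower, and those of DUSP5 a median of 0.54, with 15 of 20 higher and 1 lower. Relative to the neighbour median, the value was -2.47 for DUSP4 and -1.22 for DUSP5 (limma adjusted p = 2.54e-29 and 1.86e-18, with the median taken as known).

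SPRY2 fell as its neighbours did. Their median was -0.76, 14 of 20 were lower and 1 was higher, over 16.2 Mb of chromosome 13, and relative to that median SPRY2 stood at -0.04 (limma adjusted p = 0.227). DUSP6 likewise stood at 0.06 relative to a neighbour median of 0.33 (limma adjusted p = 0.0566), with 11 of 20 neighbours higher. SPRED2 turned from -0.17 to 0.08 relative to a neighbour median of -0.25 (limma adjusted p = 0.0383). SPRED1 kept a higher value, 0.17 relative to 0.29, and SPRY1 a lower one, -0.26 relative to -0.26, as did SPRY4, at -0.21 relative to a neighbour median of 0.08. DUSP1 stood at 0.19 relative to -0.03 and DUSP7 at -0.07 relative to 0.03. The DNA copy number of these regions was not measured, and its part in the changes was not tested.

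**Figure D3:**
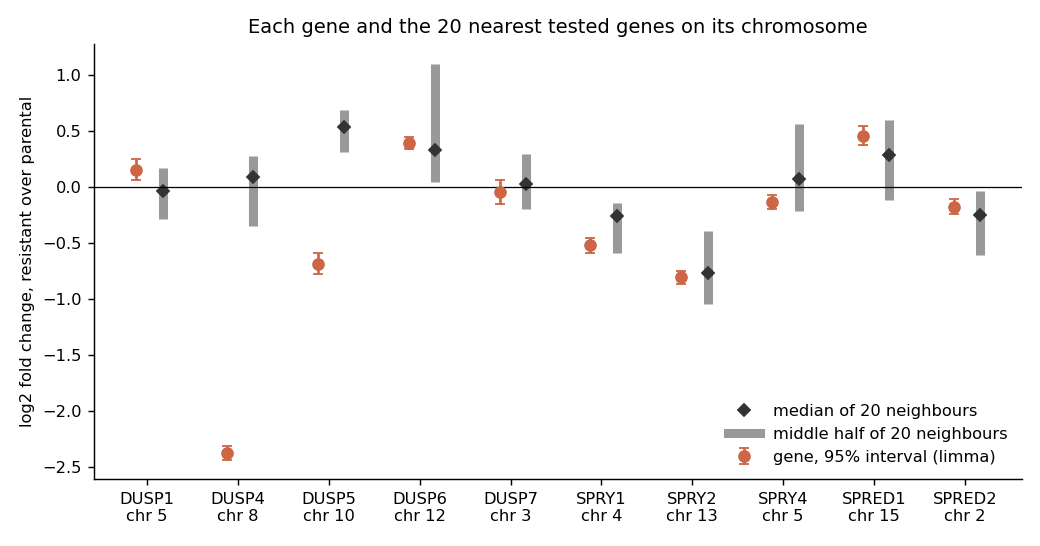
Log2 fold change of resistant over parental cells for each gene (circle, 95% interval from limma) beside the median (diamond) and the interquartile range (bar) of its 20 nearest tested genes. SPRY2 lies on its neighbour median, and DUSP4 and DUSP5 lie far below theirs.

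The genes whose pattern over the 4 libraries came closest to that of the most changed members were found by the root mean square difference of centred log2 values, among 12141 other genes with a mean of at least 100. For DUSP4 they were SERPINE2, a protease inhibitor gene (difference 0.041, log2 fold change -2.30), CYB561 (0.043, -2.29) and the WNT receptor gene FZD8 (0.049, -2.45). For SPRY2 they were AVL9 (0.0033, -0.80), SNAPC2 (0.0061, -0.81) and the transcription factor gene CEBPG (0.0072, -0.81). With 4 libraries in 2 groups this likeness describes little beyond the size of the change.

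Other MAP kinase phosphatases and feedback inhibitors were counted from lists of pathway genes. Of the 5 remaining dual-specificity MAP kinase phosphatase genes, 4 rose and 1 fell (median log2 fold change 0.66). DUSP2, a nuclear phosphatase, rose from 498 ± 14.0 to 864 ± 41.8 normalized counts (0.79, SE 0.07) and DUSP10, which acts on p38 and JNK, from 519.5 ± 3.62 to 820.3 ± 16.7 (0.66, SE 0.07). DUSP8 fell (-0.72, SE 0.12). Of 15 atypical and slingshot phosphatase genes, 6 rose and 5 fell (median 0.04), with DUSP28 higher (0.60, SE 0.10) and DUSP3 lower (-0.77, SE 0.04). The neighbours of DUSP28 had a median of 0.20 and those of DUSP3 a median of -0.50. Of 13 other negative regulators, 3 rose and 8 fell (median -0.42). IL17RD, also called SEF, a membrane inhibitor of FGF signalling to ERK, rose from 3128 ± 50.6 to 20031 ± 468 (2.68, SE 0.03), and RGS4, a regulator of G protein signalling, from 196 ± 6.54 to 4514 ± 27.7 (4.52, SE 0.06). ERRFI1, an inhibitor of the EGF receptor, fell from 27128 ± 131 to 9403 ± 14.0 (-1.53, SE 0.03). SPRED3, the remaining SPRED gene, fell as well (-1.30, SE 0.07). Neighbour medians were -0.66 for SPRED3, -0.29 for ERRFI1, 0.04 for IL17RD and 0.33 for RGS4.

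Sprouty and SPRED proteins act through partners whose genes were counted next. Of 16 Sprouty partner and turnover genes, 1 rose and 10 fell (median -0.27). The adaptor gene GRB2 fell from 17493 ± 176 to 5968 ± 117 (-1.55, SE 0.03) and the caveolin gene CAV1 from 26820 ± 308 to 8365 ± 108 (-1.68, SE 0.03), while the phosphatase gene PTPN11 rose (0.37, SE 0.03). Their neighbour medians were -1.11 for GRB2, 0.19 for CAV1 and 0.46 for PTPN11. Of 8 genes of RAS GTPase-activating proteins, 1 rose and 4 fell (median -0.15). The gene that rose was NF1, which encodes the SPRED partner neurofibromin (0.42, SE 0.04), and RASA3 fell (-1.24, SE 0.04). The neighbour median was 0.05 for NF1 and -0.85 for RASA3.

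Upstream, 7 of 16 receptor tyrosine kinase genes rose and 6 fell (median 0.20), with ERBB3 (2.52, SE 0.05) and FGFR4 (0.72, SE 0.03) higher and ALK (-3.56, SE 0.10) and AXL (-1.76, SE 0.03) lower. Of 12 adaptor and exchange factor genes, 2 rose and 8 fell (median -0.29), and of 19 genes of the RAS to ERK core 3 rose and 11 fell (median -0.21). HRAS fell (-1.05, SE 0.04, neighbour median -0.39) and the scaffold gene KSR1 rose (0.51, SE 0.04, neighbour median 0.03). Of 12 genes for JNK, p38 and related MAP kinases and for the kinases that activate them, 2 rose and 7 fell (median -0.18), with the JNK gene MAPK8 higher (0.75, SE 0.04). The neighbours of MAPK8 had a median of 0.65.

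Genes induced by ERK were counted last. DUSP4, DUSP6, SPRY2 and SPRY4 belong to a set of transcripts used to score MAP kinase activity, and of the 6 genes of that set outside the members 3 fell, 2 rose and EPHA4 was not called (median -0.13). The cyclin gene CCND1 rose from 23383 ± 27.1 to 31976 ± 733 (0.45, SE 0.03) and PHLDA1 by 0.14 (SE 0.03). ETV4, an ETS factor induced by ERK, fell from 13107 ± 8.78 to 6094 ± 324 (-1.11, SE 0.04), and the ephrin receptor gene EPHA2 by a log2 fold change of -0.39 (SE 0.03). Neighbour medians were -0.50 for ETV4, -0.25 for EPHA2, -0.14 for CCND1 and 0.72 for PHLDA1. ETV5 (-0.20, SE 0.04, lower) and EPHA4 (-0.05, SE 0.11, not past the test), named after their values were seen, complete the set. Of 25 other ERK targets, 12 rose and 10 fell (median -0.00970). Among them FOS rose by 2.61 (SE 0.06) and EGR1 by 1.98 (SE 0.04) on the log2 scale, and FOSL1 (-1.81, SE 0.04) and CXCL8 (-3.37, SE 0.08) were lower. Several of these list counts depend on the settings, and examples follow. With a change above 1.2-fold required, the genes called higher went from 12 to 7 among the other targets, from 2 to 1 in the activity set, among the adaptors and among the JNK and p38 genes, and from 6 to 3 among the atypical phosphatases. The genes called lower went from 10 to 5 among the Sprouty partners, from 11 to 7 in the core, from 8 to 5 among the adaptors and from 4 to 2 among the GTPase-activating proteins. With the neighbour median removed, the activity set had 1 higher and 5 lower, the Sprouty partners 0 and 13, and the core 15 lower, while 5 other negative regulators were higher. With every library scaled to the same total, 3 Sprouty partners and 5 core genes were higher. With the edgeR dispersion fixed at 0.01, 7 other targets, 3 atypical phosphatases and 1 gene of the activity set were higher. At that dispersion 6 Sprouty partners and 5 adaptors were lower. DESeq2, and a filter of 50 normalized counts in 2 libraries, each left 1 adaptor gene higher. Leaving out parental replicate 1 or parental replicate 2 left 1 adaptor gene and 1 JNK or p38 gene higher, leaving out resistant replicate 2 left 1 adaptor gene higher, and without resistant replicate 1 there were 2 GTPase-activating protein genes higher. All counts stand beside the 32.7% and 34.2% of genes called higher and lower in the whole table, and whether any list differs from other genes was not tested.

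**Figure D4:**
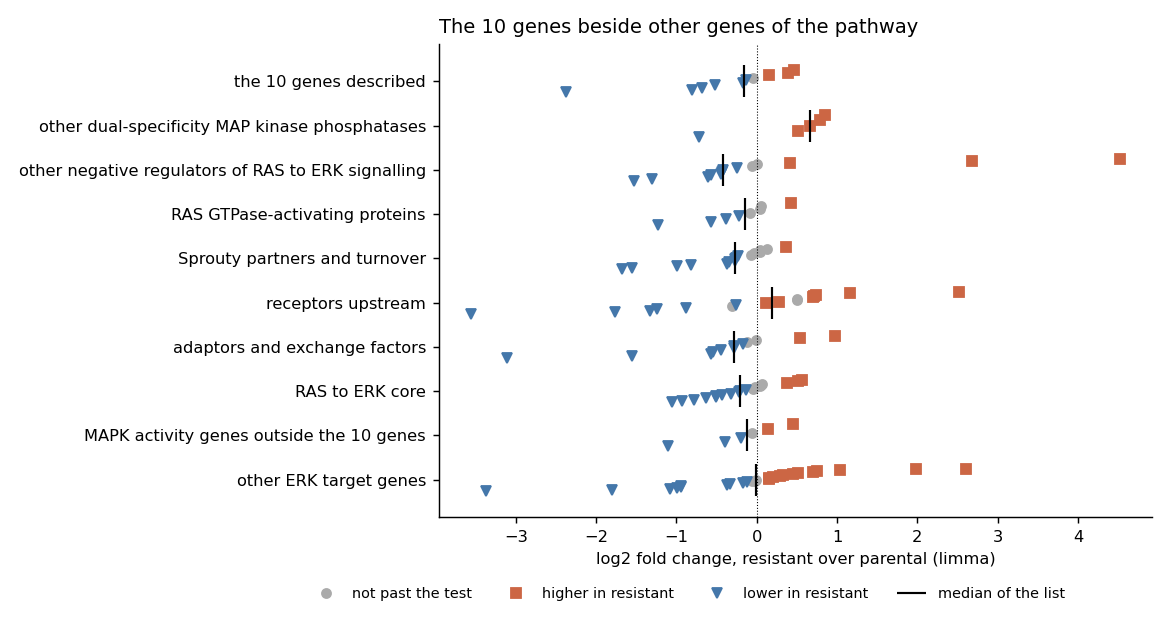
Log2 fold change of resistant over parental cells (limma) for every tested gene of 10 lists, with squares for genes called higher, triangles for genes called lower, circles for genes not past the test and a vertical line at each list's median. The 10 described genes lie on both sides of 0, with DUSP4 at the far left, and IL17RD and RGS4 lie at the far right of the other negative regulators.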

How the data were processed

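Gene counts of 4 poly(A)-selected libraries were analysed. Per the submitters' processing notes, bcl2fastq 2.17, STAR 2.5.2b, featureCounts of Subread 1.5.2 and DESeq2 were used with the build GRCh38. Neither annotation nor strand setting is given in the sources used here. The signal in the deposited table is a normalized count: within a library, each read is worth the same amount for every gene. All values (100%, tolerance 0.01) were whole multiples of one step, which gave back whole reads. Per the file headers, the log2 column and the p-value columns hold the authors' own comparison.

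Genes reaching 10 normalized counts in 2 or more libraries were tested. Values went into limma 3.58.1 as log2(value + 1) (R 4.3.3, intensity trend), resistant against parental, without a replicate block, and p-values were adjusted by Benjamini-Hochberg over all tested genes. Fold changes are on that scale. The replicate numbers are shared between groups only as numbers. edgeR 4.0.16 and DESeq2 1.42.0 on recovered reads, other pseudocounts, filters and scalings, and fits without each library were alternatives, and the fit was tested on simulated data. Loci and exon lengths are from GENCODE 29. The members and the gene lists were chosen with earlier results of these data known. From each list the text names the 2 called genes with the smallest adjusted p in each direction, given a group mean of 100 or more, and any other gene is marked where it is named. Not all genes of this rule are printed.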

Additional observations from a re-analysis of the deposited data

How the results depend on the processing

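Of the 10 members, DUSP4, DUSP5, SPRY1 and SPRED1 kept direction and call under all 17 alternatives, with ranges of -2.47 to -2.34, -1.22 to -0.65, -0.54 to -0.26 and 0.17 to 0.50. The replicate numbers did not pair the libraries (correlation of same-numbered deviations -0.030), and the replicate block changed no member's call, with DUSP4 again at -2.37 and 5926 genes called higher and 6218 lower overall. Against a change of 1.2-fold, DUSP1 (0.16), SPRY4 (-0.13) and SPRED2 (-0.17) no longer passed, and 3380 genes were called higher and 3414 lower overall. With the edgeR dispersion fixed at 0.01, DUSP1 (0.16), SPRY4 (-0.13) and SPRED2 (-0.17) did not pass either, and 3880 genes were lower. With the neighbour median removed, DUSP6 (0.060) and SPRY2 (-0.041) did not pass and SPRED2 turned to 0.078. Leaving out 1 library at a time gave 0.12 to 0.19 for DUSP1, -0.15 to -0.12 for SPRY4 and -0.092 to 0.010 for DUSP7, 2 to 3 members higher and 5 to 6 lower. The lost calls, of DUSP1 and SPRY4, were those without parental replicate 1. In each fit without a library, the lone library of a group is assumed to vary like the pair of the other group. The length used per kb, an alternative chosen after seeing the data, moves levels between genes but not the fold change of any gene. The family sums, their change between groups, the shares and the ratio of SPRED2 to SPRED1 do depend on it. Depth does not limit the members, while 2 libraries a group do.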
